A study of Mus musculus with 8 samples.

Results

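The 42 genes described here encode proteins that make ribosomes in the nucleolus. They were taken as a fixed list of names, and all 42 were found among the 27998 genes of the count table. By role, 3 belong to the box C/D small nucleolar ribonucleoproteins (snoRNPs), 4 to the box H/ACA snoRNPs, 5 are abundant nucleolar proteins, 5 act in transcription of the ribosomal DNA, 11 in maturation of the small subunit and 14 in maturation of the large subunit.

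Ribosome biogenesis starts when RNA polymerase I copies ribosomal DNA into a long precursor RNA in the nucleolus. The box C/D and box H/ACA particles then guide methylation and pseudouridylation of that precursor, and separate sets of factors fold, cut and export the small and the large subunit. The work is costly for a cell, and in blood formation protein synthesis is known to be low in stem cells and the nucleolus to shrink as granulocytes mature.

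Single-cell libraries were made by the 3′ method of 10x Genomics from KL cells of bone marrow, which carry CD117 (Kit) and lack antigens of mature lineages. All mice were B6 females of 3 to 4 months. SPF mice were kept in a specific-pathogen-free facility, and CVT mice were SPF mice moved to a conventional facility and co-housed there for 1 month with mice born in it. Each group had 10 mice in 4 pools of 2 or 3 mice, so the pool is the replicate and differences between single mice are averaged within it. The SPF pools carry the numbers 1, 2, 7 and 8 and the CVT pools 3, 4, 5 and 6. The numbers are those that end the cell names, matched to the numbers in the sample labels, and no other source used here ties cells to pools.

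The table held 12331 cells of SPF pools and 17560 cells of CVT pools, with 19041749 to 59812346 unique molecular identifiers (UMIs, one for each captured transcript) per pool. A cell had 2759 to 49732 UMIs, 6 to 33 barcodes were shared by any pair of pools, and 522 barcodes occurred in more than 1 pool. Levels are given as CPM, the UMIs of a gene scaled to the same total of UMIs in every pool and population. A 3′ method counts transcripts and not their length, so CPM needs no division by length, but it is a share of all mRNA and not an amount per cell. The sort antigen Kit stood at 76.0 CPM in all KL cells.

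Cells were grouped into 33 clusters with the 42 genes, all other listed ribosome biogenesis genes and the cell cycle lists left out, and clusters were named by markers as LTHSC-like (long-term hematopoietic stem cells), MPP-like (multipotent progenitors), LMPP-like (lymphoid-primed), CMP-like (common myeloid), MEP-like (megakaryocyte and erythroid), MK-like (megakaryocyte), GMP-like (granulocyte and monocyte), monocyte-like, late granulocyte-like, basophil or mast-like, dendritic-like and B-like. The classes were made from other genes of the same cells, so the p-values between classes describe classes made in this way.

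The list is shown by its promoters because Myc and its partner Max, known activators of ribosome biogenesis, bind the letters CACGTG. RefSeq windows of 300 bases (GRCm38.p6, 250 before to 50 after the annotated start) were matched for 37 of the 42 genes. The motif, which reads the same on both strands, was found in the windows of 8 of these 37 genes (21.6%). It was found in 20 of 104 other ribosome biogenesis genes (19.2%) and in 1141 of 9723 genes tested in KL cells (11.7%). Over all genes with RefSeq windows, measured here or not, it was found in 2187 of 27025 (8.09%). The related letters CACGCG, which were searched on both strands and cannot overlap the other motif, were found in 10 of the 37 genes (27%), against 19.9% of the genes tested in KL cells. A match is a description of the window and not a measured binding site. The stretch of 30 bases that holds the motif is given for each of the 8 genes, 5′ to 3′ on the strand of the gene, with the motif in capitals:
Ltv1 (chr10:13193092-13193121, minus strand): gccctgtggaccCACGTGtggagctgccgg
Mybbp1a (chr11:72441347-72441376, plus strand): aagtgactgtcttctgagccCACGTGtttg
Nle1 (chr11:82908355-82908384, minus strand): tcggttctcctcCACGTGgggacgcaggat
Nop2 (chr6:125131811-125131840, plus strand): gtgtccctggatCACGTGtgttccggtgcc
Pes1 (chr11:3963965-3963994, plus strand): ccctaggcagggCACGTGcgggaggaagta
Tsr1 (chr11:74898092-74898121, plus strand): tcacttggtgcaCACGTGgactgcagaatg
Utp20 (chr10:88826765-88826794, minus strand): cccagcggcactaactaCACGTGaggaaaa
Wdr43 (chr17:71616220-71616249, plus strand): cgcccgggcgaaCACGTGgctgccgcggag
Of these 8 motifs, that of Nop2 lay before the annotated start and the other 7 lay 2 to 40 bases past it. The genes Npm1, Fbl, Bop1, Rrp12 and Rrs1 are named only.

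In all KL cells the 42 genes together made up 8397 ± 778 CPM (SD, n = 8 pools). Their mean levels ran from 10.4 CPM for Rrp12, a factor of small subunit maturation and export, to 2458 CPM for Npm1 (nucleophosmin), a nucleolar chaperone of assembling ribosomes. Values in every pool are given for the pair of highest genes of each role, in the order SPF pools 1, 2, 7 and 8 and then CVT pools 3, 4, 5 and 6.

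Among the box C/D proteins, Fbl (fibrillarin), the methyltransferase of the particle, had 397, 453, 385 and 429.9 CPM in SPF pools and 474, 463, 391 and 369 CPM in CVT pools. Nop56, a scaffold protein of the particle, had 291, 303, 232 and 287 CPM in SPF pools and 321, 321, 222 and 223 CPM in CVT pools. For both genes CVT pools 3 and 4 were above every SPF pool and CVT pools 5 and 6 were in or below the SPF range, so the groups overlapped. The third box C/D gene, Nop58, the other scaffold protein, averaged 238 ± 28.6 CPM (SD, n = 8).

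Among the box H/ACA proteins, Nop10, a small core protein, had 874, 928, 839.8 and 875 CPM in SPF pools and 887, 839.8, 859.7 and 880.3 CPM in CVT pools. Nhp2, an RNA-binding core protein, had 341, 345, 298 and 339 CPM in SPF pools and 368, 403, 312 and 347 CPM in CVT pools. Both groups overlapped for both genes, and SPF pool 7 was the lowest pool for Nhp2. Gar1 averaged 187 ± 15.7 CPM, and Dkc1 (dyskerin), the pseudouridine synthase of the particle, 162 ± 22.4 CPM (SD, n = 8).

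Npm1 had 2496, 2607, 2132 and 2309 CPM in SPF pools and 2698, 2863, 2271 and 2289 CPM in CVT pools. Ncl (nucleolin), which binds the precursor RNA, had 1332, 1337, 1068 and 1209 CPM in SPF pools and 1412, 1415, 1045 and 1112 CPM in CVT pools. Pools 1 to 4 were above pools 5 to 8 for both genes, whatever the housing. The other abundant nucleolar genes were Gnl3 (nucleostemin, a GTPase) at 186 ± 16.2 CPM, Ddx21 (an RNA helicase) at 143 ± 13.1 CPM and Nolc1 (a chaperone of snoRNPs) at 135 ± 20.3 CPM.

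Among the genes of ribosomal DNA transcription, Wdr43, which joins transcription to early processing, had 145, 135, 101 and 117 CPM in SPF pools and 143, 130.1, 104 and 102 CPM in CVT pools. Mybbp1a, a nucleolar regulator of this transcription, had 78.1, 89.8, 82.5 and 83.1 CPM in SPF pools and 90.0, 89.8, 77.5 and 76.5 CPM in CVT pools. The groups overlapped for both. The catalytic subunits of RNA polymerase I were lower in counts, with 23.4 ± 1.19 CPM for Polr1a and 15.5 ± 1.04 CPM for Polr1b, and Heatr1, like Wdr43 a factor of transcription and processing, had 12.2 ± 1.95 CPM (SD, n = 8).

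In the small subunit group, Utp3, a factor of the early processome, had 82.2, 87.2, 79.5 and 87.8 CPM in SPF pools and 87.1, 88.5, 76.8 and 78.7 CPM in CVT pools. Nob1, the nuclease that makes the final cut of the small subunit RNA, had 65.9, 66.4, 55.5 and 63.0 CPM in SPF pools and 69.6, 67.4, 59.4 and 55.1 CPM in CVT pools. The groups overlapped for both. The other 9 ranged from 10.4 CPM (Rrp12) to 61.6 CPM for Nop14, an early processome protein. They include its partner Noc4l, the U3 snoRNP protein Rrp9, the processome protein Utp20, the acetyltransferase Nat10, and Bysl, Tsr1 and Ltv1, which act on later particles.

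In the large subunit group, Ebna1bp2, an early assembly factor, had 179.9, 177, 159 and 175 CPM in SPF pools and 188, 181, 155 and 158 CPM in CVT pools. Wdr12, which works in a complex with Bop1 and Pes1, had 148, 144, 118 and 134 CPM in SPF pools and 145, 139.6, 115 and 113 CPM in CVT pools. The groups overlapped for both. The other 12 ranged from 18.1 CPM for Noc3l to 127 CPM for Mrto4, which holds the place of a stalk protein on the immature subunit. Among them were the RNA methyltransferases Nop2 and Ftsj3, the export and assembly factors Noc2l, Nle1 and Nip7, and the assembly factors Rrs1, Rrp1b and Nop16.

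Pools 1 to 4 and pools 5 to 8, which hold the lower and the higher mouse numbers of the labels and 2 SPF and 2 CVT pools each, stood apart for the 42 genes. With housing as a covariate, 24 of 42 genes were lower in pools 5 to 8 in all KL cells (edgeR, adjusted p under 0.05) and 0 were higher, with 0 higher also at an unadjusted p under 0.05. Of all genes tested, 9.72% were lower, and the median log2 difference was -0.21 for the 42 genes. In GMP-like cells 6 of 42 were lower (3.52% of genes) and in MPP-like cells 1 of 42 (1.06%). In the other classes tested none of the 42 genes was called in either direction. Lower with an adjusted p under 0.05 were 0 of 42 genes in MEP-like cells (0.0183% of genes), 0 of 42 in LMPP-like cells (0.673%), 0 of 42 in CMP-like cells (0.166%) and 0 of 38 in LTHSC-like cells (0.0835%). With an unadjusted p under 0.05 the counts were 16 in MEP-like cells (7.5% of genes), 9 in LMPP-like cells (7.39%), 1 in CMP-like cells (5.4%) and 3 in LTHSC-like cells (3.93%). Among the genes lower in KL cells were Wdr43 (log2 difference -0.37, SE 0.05, adjusted p = 0.0086), Nolc1 (-0.36, SE 0.07, adjusted p = 0.0135) and Ncl (-0.30, SE 0.06, adjusted p = 0.0151). Of 122 other ribosome biogenesis genes, 53 were lower too, among them Las1l, Ddx51 and Wdr18. The make-up of the KL cells moved with the sets as well. MEP-like cells, the class with the highest level, made up between 31.2 and 35.2% of each pool numbered 1 to 4 and between 22.2 and 26.5% of each pool numbered 5 to 8. For late granulocyte-like cells, the class with the lowest level, the shares were between 2.42 and 6.36% and between 5.36 and 12.5%. In the same KL comparison 4 of 6 listed lineage antigen genes were tested (Ptprc, Cd4, Itgam and Ly6g). All 4 were above 0 in pools 5 to 8 (median log2 difference 0.94), though Ptprc counts do not separate CD45R from other forms of CD45. In these pools Kit was higher (0.31, adjusted p = 0.0191) and 10 of 19 genes of S phase were lower. The part of these shares and genes in the result was not tested. What differed between the sets of pools is not given in the labels, so housing is compared below also within each set.

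The classes were ordered by the summed level of the 42 genes (n = 8 pools, mean ± SD). It was lowest in late granulocyte-like cells at 2312 ± 609 CPM, then 6103 ± 361 CPM in LTHSC-like, 6211 ± 387 CPM in basophil or mast-like, 7244 ± 432 CPM in LMPP-like, 7343 ± 395 CPM in MPP-like, 7381 ± 316 CPM in CMP-like, 7744 ± 538 CPM in monocyte-like, 8102 ± 494 CPM in MK-like, 8251 ± 448 CPM in GMP-like and 10665 ± 887 CPM in MEP-like cells. The highest and the lowest class were separated from their neighbours in 8 of 8 pools. LTHSC-like cells were below basophil or mast-like cells in 5 of 8 pools, LMPP-like below MPP-like in 7, MPP-like below CMP-like in 4, CMP-like below monocyte-like in 5, monocyte-like below MK-like in 6, and MK-like below GMP-like in 5, so these neighbours were not separated within every pool. LMPP-like cells were above basophil or mast-like cells in 8 of 8 pools. The monocyte-like class held unlike clusters, at 8130 CPM (1472 cells), 8448 CPM (1234 cells) and 3001 CPM (536 cells, with Fn1 among its markers). Dendritic-like cells, a small class, had 4084 ± 437 CPM. The plot of summed levels by pool shows the same order.

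**Figure D1:**
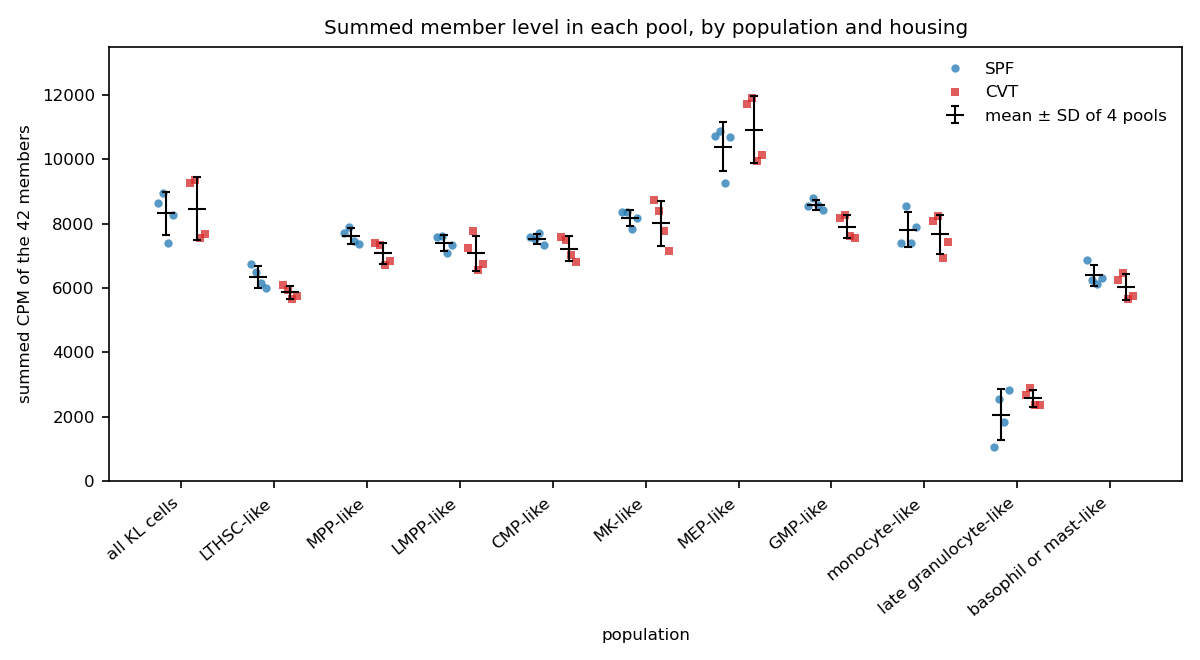
Summed level of the 42 genes in each class, in CPM on a linear axis, 1 point per pool, with SPF pools as blue circles, CVT pools as red squares and the mean ± SD of each group of 4 pools in black. The MEP-like pools sit highest, between 9263 and 11919 CPM, and the late granulocyte-like pools lowest, between 1049 and 2875 CPM.

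Of the 42 genes, 38 had their highest mean in MEP-like cells, and the exceptions were Nhp2 and Nop10 (GMP-like), Utp3 (monocyte-like) and Ltv1 (MK-like). All 42 had their lowest mean in late granulocyte-like cells among these 10 classes. The ratio of the highest to the lowest class mean ran from 1.49 for Utp3 to 7 for Noc3l, with 2.67 for Ebna1bp2 and 6.51 for Ddx21. Taken per cell, the 42 genes gave 36.3 UMIs in LTHSC-like, 126 in GMP-like, 134 in MEP-like and 20.7 in late granulocyte-like cells, whose cells held 5936, 15220, 12393 and 8738 UMIs in all.

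**Figure D2:**
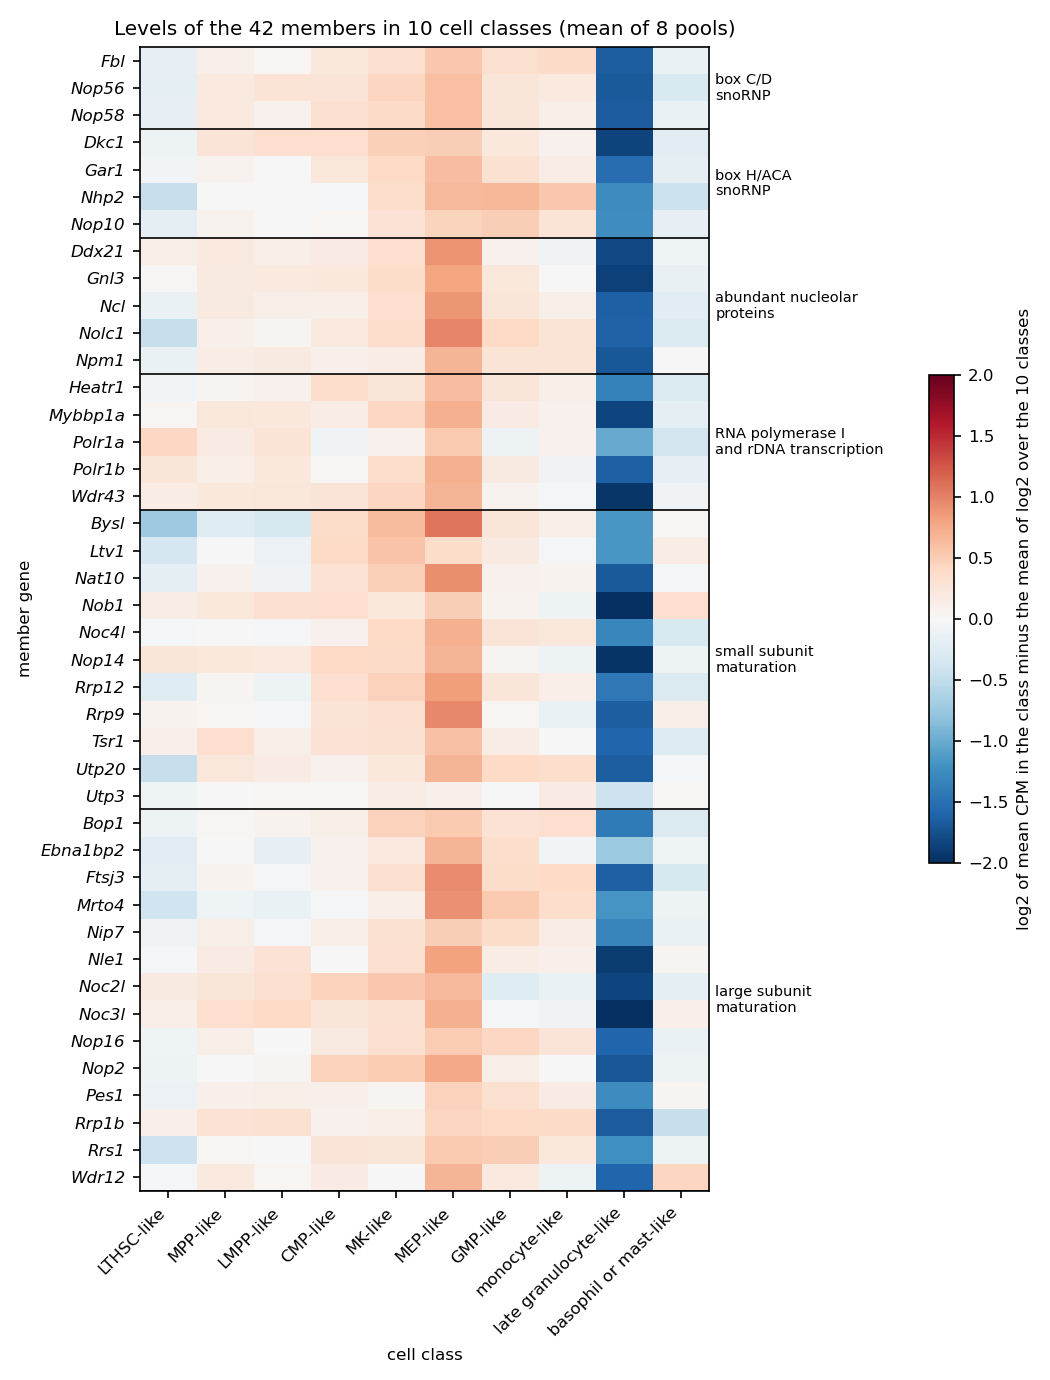
Level of each of the 42 genes (lines, grouped by role) in each class (columns), as log2 of mean CPM in the class (8 pools) minus the mean of these log2 values over the 10 classes, with colours limited at 2 units either way. The MEP-like column is the highest for 38 genes and the late granulocyte-like column the lowest for all 42.

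The first step compared was that from LTHSC-like to MPP-like cells, with the pool as a block. In this comparison 25 of 42 genes were higher in MPP-like cells (edgeR, adjusted p under 0.05), where 20.3% of all genes tested were higher, and 0 were lower, where 20.9% of all genes were. By an unadjusted p under 0.05 and by DESeq2, 0 were lower as well. The median log2 difference was 0.27 for the 42 genes and -0.02 for all genes tested. The 25 held all 3 box C/D genes, all 4 box H/ACA genes and all 5 abundant nucleolar genes, 4 of 11 small subunit genes, 8 of 14 large subunit genes, and 1 of 5 genes of ribosomal DNA transcription, Mybbp1a. Utp20 had 5.97, 9.11 and 12.8 CPM (lowest, median and highest pool) in LTHSC-like cells and 13.1, 15 and 17.8 CPM in MPP-like cells, which did not overlap (log2 difference 0.79, SE 0.18, adjusted p = 0.00027). For Nolc1 the values were 57.7, 74.0 and 81.3 CPM against 80.4, 102 and 121 CPM, higher in 8 of 8 pools (0.59, SE 0.07, adjusted p = 1.0e-10). Nhp2 stood at 149, 189 and 228 CPM against 233, 260.2 and 281 CPM, with no overlap (0.47, SE 0.05, adjusted p = 2.8e-13). The polymerase subunits did not pass the test, with log2 differences of -0.08 (SE 0.13) for Polr1a and -0.03 (SE 0.17) for Polr1b, nor did Nop14 at -0.04 (SE 0.08). Of 120 other ribosome biogenesis genes tested, 39 were higher, led by the exosome subunits Exosc8 (0.68) and Exosc5 (0.54) and the small subunit factor Pno1 (0.64), and 3 were lower, the snoRNA hosts Epb41l4aos (-0.32) and Snhg12 (-0.22) and the large subunit factor Gltscr2 (-0.19). In the same comparison 18 of 19 genes of S phase, 17 of 18 genes of G2/M and Myc (log2 difference 0.53) were higher, and their part in the result was not tested.

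LMPP-like and CMP-like cells were each compared with MPP-like cells. In LMPP-like cells 3 of 42 genes were higher (14.4% of all genes), namely Dkc1 (log2 difference 0.12), Nop56 (0.11) and Npm1 (0.06), and 3 were lower (13.7% of all genes), namely Wdr12 (-0.14), Nip7 (-0.13) and Ebna1bp2 (-0.12). The split was 1 higher and 7 lower when counts were scaled by library size alone, DESeq2 called 0 in either direction, and with clusters at resolution 1 the split was 0 higher and 18 lower, with a median of -0.12. In CMP-like cells 5 were higher (15.7% of all genes), namely Bysl (0.49), Nop2 (0.40), Ltv1 (0.36), Rrs1 (0.19) and Fbl (0.10), and 3 were lower (16.4% of all genes), namely Rrp1b (-0.21), Ncl (-0.09) and Npm1 (-0.07). The split here was 7 higher and 2 lower with library size alone. Bysl had 13.6, 16.8 and 20.6 CPM (lowest, median and highest pool) in MPP-like and 17.7, 27.2 and 36.6 CPM in CMP-like cells, higher in 8 of 8 pools although the ranges overlapped. The median difference was 0.00 for LMPP-like and 0.04 for CMP-like cells. Among other ribosome biogenesis genes, LMPP-like cells had 8 higher and 9 lower of 122, led by Tcof1 (0.43), Snhg12 (0.27) and Ddx54 (0.27) and by Wdr36 (-0.25), Rbm28 (-0.22) and Znrd1 (-0.22). CMP-like cells had 13 higher and 8 lower of 119, led by Polr1e (0.50), Rrp8 (0.43) and C1d (0.42) and by Snhg12 (-0.87), Ddx31 (-0.63) and Nmd3 (-0.35). Genes of G2/M were lower for 19 of 20 in LMPP-like cells while 7 of 19 genes of S phase were higher.

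From CMP-like to MEP-like cells, 41 of 42 genes were higher (30.3% of all genes tested) and 0 were lower (31.2% of all genes), with 0 lower also by an unadjusted p under 0.05 and by DESeq2. The median log2 difference was 0.57. Mrto4 had 71.0, 91.0 and 106 CPM in CMP-like and 145, 171 and 207 CPM in MEP-like cells, with no overlap (log2 difference 1.06, SE 0.06, adjusted p = 9.4e-16). Ftsj3 had 45.3, 49.2 and 65.9 CPM against 69.5, 93.5 and 113 CPM (1.02, SE 0.08, adjusted p = 2.2e-12). Ncl had 898, 1025 and 1098 CPM against 1432, 1742 and 1987 CPM (0.87, SE 0.03, adjusted p = 2.7e-20), and Nolc1 differed by 0.92 (SE 0.07). These genes did not overlap between the classes either. The gene that did not pass was Ltv1, at 0.11 (SE 0.07). All 5 genes of ribosomal DNA transcription were higher here, with 0.63 (SE 0.11) for Polr1a and 0.78 (SE 0.12) for Polr1b. Of 122 other ribosome biogenesis genes, 94 were higher, led by Urb1 (0.98), Wdr18 (0.97) and Dis3 (0.95), and 4 were lower, among them Znrd1 (-0.42), C1d (-0.24) and Krr1 (-0.22). Myc itself was 0.28 higher.

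The MEP-like class was not uniform. Its largest cluster (3238 cells, 5450 UMIs per cell) stood at 7095 CPM for the 42 genes, below the CMP-like cluster at 7342 CPM, and the next (1878 cells) at 9956 CPM. The 3 clusters with Sphk1 and Rhd among their markers stood at 12513, 12962 and 13142 CPM, with 27261, 19831 and 27037 UMIs per cell. The cluster led by globin genes (138 cells) stood at 3723 CPM, while its summed S phase genes (4058 CPM) and G2/M genes (4076 CPM) were above those of the Sphk1 and Rhd clusters. The plot of clusters sets these levels against UMIs per cell.

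**Figure D3:**
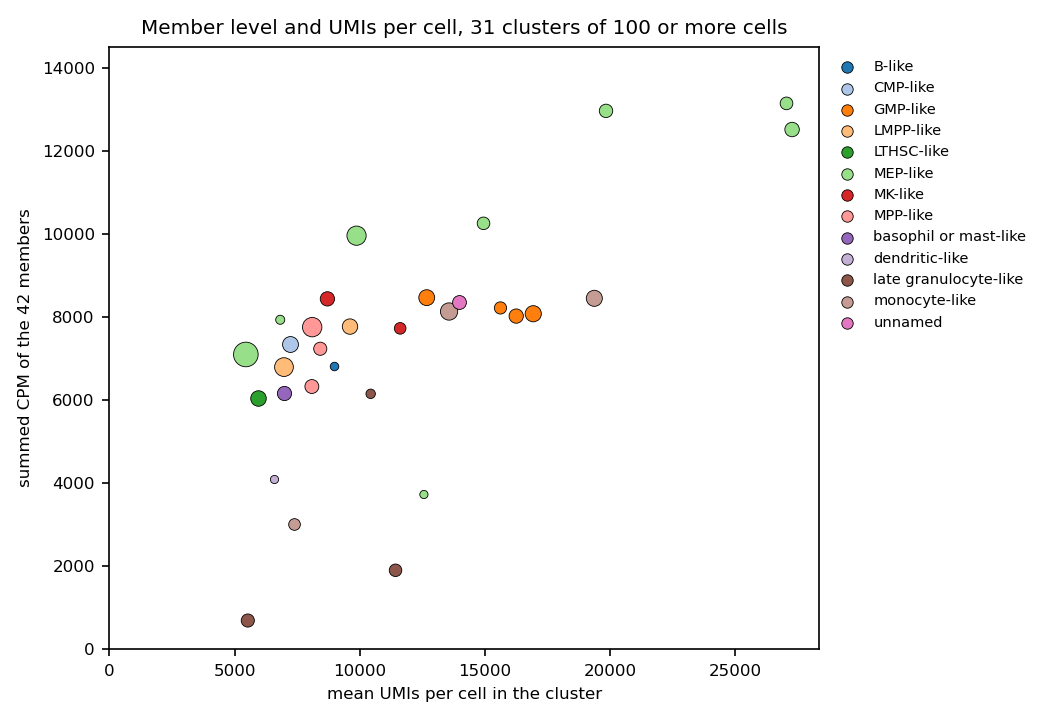
Summed level of the 42 genes in CPM against mean UMIs per cell in each of 31 clusters of at least 100 cells, with class by colour and larger points for clusters of more cells. The 3 MEP-like clusters with Sphk1 and Rhd are at the top right at 12513 to 13142 CPM, and a late granulocyte-like cluster is lowest at 688 CPM.

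Over these 31 clusters, which share libraries and differ in depth, the summed level of the 42 genes had a Spearman rho of 0.482 with that of S phase genes, 0.0754 with that of G2/M genes, 0.499 with Myc and 0.705 with UMIs per cell. With the other small subunit genes rho was 0.926, with the exosome 0.900 and with the other large subunit genes 0.803. These are descriptions over clusters and not over replicates.

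From MPP-like to GMP-like cells, 36 of 42 genes were higher (35.8% of all genes tested) and 1 was lower (38.2% of all genes), with a median log2 difference of 0.36. With library size alone the split was 19 higher and 7 lower, and the median of all genes then moved to -0.28. With clusters at resolution 1 it was 23 higher and 3 lower, with a median of 0.21 for the 42 genes. Nhp2 had 233, 260.2 and 281 CPM in MPP-like and 379.6, 412 and 424 CPM in GMP-like cells, with no overlap (0.91, SE 0.02, adjusted p = 3.8e-32). Mrto4 had 75, 86.1 and 104 CPM against 120.0, 130.1 and 149 CPM (0.85, SE 0.03, adjusted p = 1.0e-24). Rrs1 had 71.1, 81.3 and 98.3 CPM against 103, 114 and 122 CPM (0.71, SE 0.04, adjusted p = 1.1e-20). None of the ranges of these 3 genes overlapped. The gene that was lower was Noc2l, with 49.2, 58.6 and 61.0 CPM against 33.6, 42.3 and 48.0 CPM (-0.23, SE 0.05, adjusted p = 0.00013). The other 5, Noc3l, Polr1a, Nop14, Nob1 and Tsr1, did not pass, at -0.08 to 0.10. Of 122 other ribosome biogenesis genes, 80 were higher, led by Pno1 (0.80), Wdr18 (0.79) and Exosc8 (0.76), and 10 were lower, among them Ttf1 (-0.36), Nol6 (-0.34) and Snhg12 (-0.32). Myc differed by -0.04 in this comparison, while 18 of 19 genes of S phase were higher.

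From GMP-like to late granulocyte-like cells, 40 of 42 genes were lower and 1 was higher, where 36.0% of all genes were lower and 36.0% higher, and the median log2 difference was -1.19. Npm1 had 2178, 2375 and 2502 CPM in GMP-like and 233, 662 and 747 CPM in late granulocyte-like cells, with no overlap (-1.39, SE 0.11, adjusted p = 7.9e-11). Gnl3 had 148, 173 and 185 CPM against 11.8, 42.9 and 55.4 CPM (-1.43, SE 0.10, adjusted p = 4.4e-11). Rrp1b had 44.7, 56.4 and 67.5 CPM against 9.42, 12.8 and 19.4 CPM (-1.43, SE 0.10, adjusted p = 3.7e-11), and Ftsj3 differed by -1.40 (SE 0.11). These levels did not overlap between the classes. Utp3 was called higher (0.20, SE 0.07, adjusted p = 0.017) with the scaling of edgeR, but its CPM were lower in 8 of 8 pools (73.3, 80.6 and 86.9 against 41.1, 58.4 and 77.4 CPM), so its direction turned with the scaling. Polr1a did not pass (-0.23, SE 0.13). With library size alone all 42 were lower at a median of -1.81, while the median of all genes moved to -0.63. Of 122 other ribosome biogenesis genes 106 were lower, led by Pno1 (-1.51), Rcl1 (-1.45) and Tcof1 (-1.39), and 0 were higher, also by an unadjusted p under 0.05. All 20 genes of G2/M were higher and 14 of 19 genes of S phase lower in the same comparison, and the log2 difference of Myc was -1.42.

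**Figure D4:**
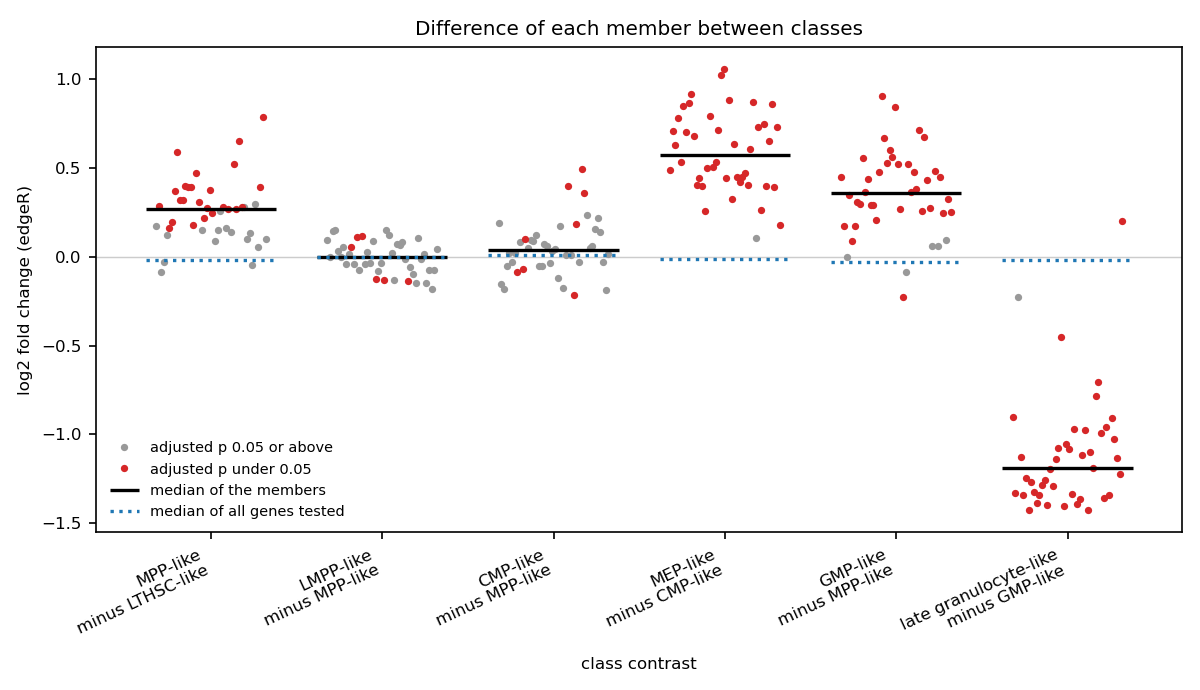
Log2 difference of each of the 42 genes (points) in each of the 6 comparisons of classes, with red points for an adjusted p under 0.05, grey points for others, the median of the 42 genes as a black line and that of all genes tested as a dotted line. The medians are 0.27 for MPP-like minus LTHSC-like, 0.57 for MEP-like minus CMP-like, 0.36 for GMP-like minus MPP-like and -1.19 for late granulocyte-like minus GMP-like cells.

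The late granulocyte-like class went against the sort and held 3 unlike clusters. The 6 listed lineage antigen genes, Ptprc among them, summed to 773 CPM (108 CPM in all KL cells), and Kit stood at 27.5 CPM. The summed level was 688 CPM in the cluster led by Ifitm6 and Retnlg (745 cells), 1898 CPM in that led by Fcnb and Chil3 (657 cells, with G2/M genes at 2565 CPM) and 6147 CPM in that led by Retnlg and Gm5483 (263 cells). Kit stood at 79.4 CPM in the last and at 10.9 CPM in the first. Without the last cluster the median log2 difference from GMP-like cells was -1.69, with 40 of 42 genes lower.

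Housing was then compared in each population, CVT against SPF. None of the 42 genes passed an adjusted p under 0.05 in KL, LTHSC-like, MPP-like, LMPP-like, CMP-like, MEP-like or GMP-like cells by edgeR or by DESeq2. Of all genes 0.0% did by edgeR in each of the 7 populations. By DESeq2 30 of 13092 genes did in KL cells, 2 of 10920 in MEP-like cells and 0 in the other populations. In LTHSC-like cells 38 of the 42 genes passed the filter on low counts, and in the other populations all 42 did.

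In all KL cells 1 of 42 genes had an unadjusted p under 0.05 with higher levels in CVT pools (2.99% of genes) and 0 with lower levels (4.04% of genes), and 9 of 42 differences were below 0 (21.4%), against 53.5% over all genes. The median log2 difference was 0.05, against -0.01 for all genes. Without CVT pool 4 the differences split into 21 above and 21 below 0, and with library size alone into 22 and 20. Utp20 had 16.7, 15.6, 16.0 and 16.4 CPM in SPF and 17.9, 16.2, 17.2 and 16.9 CPM in CVT pools (0.13, SE 0.06, adjusted p = 0.699). Heatr1 had 15, 12.5, 14.4 and 11.8 CPM in SPF and 13, 9.76, 10.9 and 9.87 CPM in CVT pools (-0.25, SE 0.11, adjusted p = 0.699). Both overlapped between groups. Every CVT pool was below every SPF pool for 0 of 42 genes, against 688 of 13092 genes tested, and above for 0 of 42, against 118. For each set, the median over the 42 genes of log2 CPM, centred per gene over the 8 pools, was taken in each pool. The CVT mean minus the SPF mean of these pool medians is called the within-set difference. It rests on 2 CVT and 2 SPF pools and is not a fitted value. It was 0.13 in pools 1 to 4 and -0.06 in pools 5 to 8, so the estimates differed in sign. A set-by-housing term (edgeR) had a lowest adjusted p of 0.534 among the 42 genes, so no difference between the sets was called. The 4 tested lineage antigen genes, Ptprc among them, were below 0 (median log2 difference -0.60) and all 20 genes of G2/M above 0 (median 0.21). The part of these genes in the values of the 42 was not tested.

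In LTHSC-like cells 4 of 38 genes had an unadjusted p under 0.05 with lower levels in CVT pools (2.12% of genes) and 1 with higher levels (3.49% of genes), and every CVT pool was below every SPF pool for 3 genes (Nop56, Ltv1 and Wdr12), as for 2.69% of all genes. The median log2 difference was -0.09. Nop56 had 234, 237, 188 and 225 CPM in SPF and 184, 161, 163 and 155 CPM in CVT pools (-0.38, SE 0.10, adjusted p = 0.545). Polr1a had 22.4, 20.9, 31.3 and 19.9 CPM in SPF and 35.9, 29.3, 27.1 and 30.1 CPM in CVT pools (0.47, SE 0.23, adjusted p = 0.878). The groups of Polr1a overlapped through SPF pool 7. The within-set difference was -0.05 in pools 1 to 4 and -0.11 in pools 5 to 8, with a lowest adjusted p of 0.503 for the set-by-housing term (edgeR).

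In MPP-like cells 11 of 42 genes had an unadjusted p under 0.05 with lower levels in CVT pools (2.51% of genes) and 0 with higher levels (2.96% of genes). Every CVT pool was below every SPF pool for 10 genes (Gnl3, Ddx21, Heatr1, Ltv1, Mrto4, Nip7, Noc3l, Nop10, Tsr1 and Utp3), as for 3.51% of all genes. Of the 42 differences 40 were below 0 (95.2%), against 48.6% over all genes, and the median was -0.12. Gnl3 had 195, 186, 185 and 175 CPM in SPF and 155, 142, 147 and 139 CPM in CVT pools (-0.29, SE 0.07, adjusted p = 0.744). Npm1 went the other way, with 2142, 2286, 2062 and 1986 CPM in SPF and 2266, 2323, 2072 and 2128 CPM in CVT pools (0.11, SE 0.06, adjusted p = 0.922), and its groups overlapped. The within-set difference was -0.07 in pools 1 to 4 and -0.17 in pools 5 to 8, with a lowest adjusted p of 0.627 for the set-by-housing term (edgeR). S phase genes were lower with an unadjusted p under 0.05 for 8 of 19, and G2/M genes were higher at that threshold for 7 of 20, with 18 of 20 above 0 and a median of 0.28. The part of either list was not tested. The largest MPP-like cluster held 61.0 ± 4.14% of the class in SPF and 48.6 ± 16.2% in CVT pools (SD, n = 4), and within that cluster the median was -0.14 with 37 of 42 genes below 0.

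In LMPP-like cells 1 of 42 genes had an unadjusted p under 0.05 with lower levels (2.41% of genes) and 0 with higher levels (3.17% of genes), and in CMP-like cells 2 with lower (2.02% of genes) and 0 with higher levels (2.78% of genes). The median was -0.03 and -0.02. In LMPP-like cells Wdr12 had 133, 126, 107 and 126 CPM in SPF and 110.0, 113, 88.2 and 98.3 CPM in CVT pools (-0.20, SE 0.09, adjusted p = 0.854), and Rrp12 differed by 0.36 (SE 0.25, adjusted p = 0.913), from 8.84, 5.96, 5.89 and 6.77 CPM to 9.17, 10.3, 8.35 and 4.90 CPM. In CMP-like cells Rrs1 had 99.0, 109.8, 125 and 98.0 CPM in SPF and 86.2, 91.2, 83.0 and 74.8 CPM in CVT pools (-0.30, SE 0.12, adjusted p = 0.967). Noc2l in CMP-like cells differed by 0.24 (SE 0.14, adjusted p = 0.967), from 68.9, 55.3, 78.7 and 51.8 CPM to 69.8, 66.7, 70.8 and 66.9 CPM. Rrs1 was the only one of these 4 whose groups did not overlap. In CMP-like cells every CVT pool was below every SPF pool for 3 of 42 genes (Ftsj3, Ltv1 and Rrs1), against 177 of 7813 genes tested. In LMPP-like cells this held for 3 of 42 genes (Ebna1bp2, Nip7 and Nop10), against 322 of 9814. In LMPP-like cells the within-set difference was 0.04 in pools 1 to 4 and -0.11 in pools 5 to 8, and in CMP-like cells it was 0.05 and -0.14. The estimates thus differed in sign, but the lowest adjusted p of the set-by-housing term (edgeR) was 0.879 and 0.781, so no difference between the sets was called. In CMP-like cells the pool medians were 0.16 in SPF pool 7 and 0.002 in SPF pool 8. Without SPF pool 7 the median log2 difference in CMP-like cells was 0.01.

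In MEP-like cells 1 of 42 genes had an unadjusted p under 0.05 with higher levels in CVT pools (2.62% of genes) and 0 with lower levels (4.09% of genes). The median log2 difference was 0.09, and 6 of 42 were below 0 (14.3%), against 50.9% over all genes. Every CVT pool was below every SPF pool for 0 of 42 genes, against 326 of 10920 genes tested, and above for 0 of 42, against 97. All 20 genes of G2/M were above 0 as well (median 0.29), and their part was not tested. Nhp2 had 393, 388, 327 and 409.9 CPM in SPF and 432, 465, 384 and 435 CPM in CVT pools (0.21, SE 0.08, adjusted p = 0.715). Heatr1 had 18, 14.3, 17.6 and 15.1 CPM in SPF and 16.5, 13.6, 14.9 and 13.1 CPM in CVT pools (-0.10, SE 0.11, adjusted p = 0.835). The clusters with Sphk1 and Rhd held 21.8 ± 7.64% of the MEP-like cells in SPF and 31.4 ± 6.52% in CVT pools (SD, n = 4), with 10.6% in SPF pool 7. Within those clusters alone the median was 0.01, and within the largest MEP-like cluster it was -0.03. The within-set difference was 0.15 in pools 1 to 4 and 0.00 in pools 5 to 8, with a lowest adjusted p of 0.806 for the set-by-housing term (edgeR).

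In GMP-like cells 7 of 42 genes had an unadjusted p under 0.05 with lower levels in CVT pools (2.79% of genes) and 0 with higher levels (3.15% of genes). Every CVT pool was below every SPF pool for 6 genes (Dkc1, Ebna1bp2, Gar1, Ncl, Nolc1 and Rrp1b), as for 3.97% of all genes. Of the 42 differences 39 were below 0 (92.9%), against 50.1% over all genes, and the median was -0.09. Dkc1 had 170.2, 179, 164 and 165 CPM in SPF and 153, 149.8, 139 and 128 CPM in CVT pools (-0.21, SE 0.06, adjusted p = 0.749). Pes1 differed by 0.05 (SE 0.09, adjusted p = 0.991), from 59.0, 65.0, 69.1 and 62.5 CPM to 73.6, 68.8, 60.5 and 53.1 CPM. The summed level was 8550.0, 8807, 8590.1 and 8419 CPM in SPF and 8183, 8263, 7625 and 7567 CPM in CVT pools, with no overlap in CPM. The pool medians, which use the scaling of edgeR, did overlap. They were -0.009 in SPF pool 1 and 0.005 and 0.048 in CVT pools 3 and 4. The within-set difference was -0.01 in pools 1 to 4 and -0.16 in pools 5 to 8, and the lowest adjusted p of the set-by-housing term (edgeR) was 0.241, for Nolc1.

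**Figure D5:**
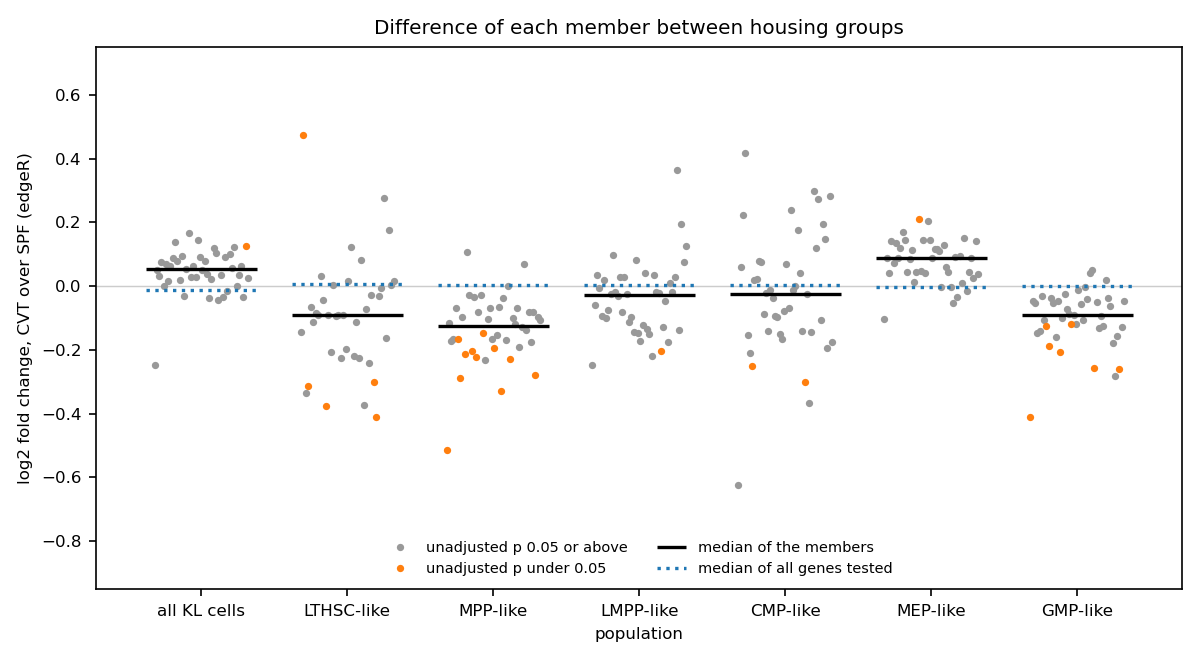
Log2 difference CVT over SPF of each of the 42 genes (points) in KL cells and 6 classes, with orange points for an unadjusted p under 0.05, grey points for others, the median of the 42 genes as a black line and that of all genes tested as a dotted line. Medians are above 0 in KL (0.05) and MEP-like cells (0.09) and below 0 in the other 5 populations, lowest in MPP-like cells (-0.12), and no gene passed an adjusted p under 0.05.

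Since medians had unlike signs, the change with housing was compared between classes, in a test added after these values were seen. The pairs set the class with the highest median against the classes with the lowest, and other pairs were not run. The counts of signs and of unadjusted p-values below thus partly restate the values by which the pairs were chosen and are no separate evidence. Against MPP-like cells, the estimated change in MEP-like cells lay above that in MPP-like cells for 41 of 42 genes, with a median difference of 0.23. By an adjusted p under 0.05, 0 of 42 passed (0.00968% of all genes did), and 17 had an unadjusted p under 0.05 in the higher direction (5.1% of genes). The gene with the lowest adjusted p was Gnl3 (difference 0.39, SE 0.08, adjusted p = 0.19). Against GMP-like cells the estimated change in MEP-like cells lay above for 42 of 42 genes (median difference 0.16), with 0 of 42 past the adjusted threshold (0.00918% of all genes) and 17 at an unadjusted p under 0.05 (4.87% of genes). Against LTHSC-like cells it lay above for 31 of 42 genes (median difference 0.15), with 0 of 42 past the adjusted threshold (0.0713% of all genes), 4 at an unadjusted p under 0.05 in the higher direction (1.76% of genes) and a lowest adjusted p of 0.414. Classes of 1 pool share a library, and the difference was not called for any of the 42 genes. The make-up of the MEP-like class also differed, with 21.8% of its cells in the Sphk1 and Rhd clusters in SPF and 31.4% in CVT pools. Within the largest MEP-like cluster alone the median change with housing was -0.03. The part of this make-up in the differences between classes was not tested.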

How the data were processed

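The authors deposited whole-number UMI counts per gene and cell for 29891 KL cells, made with Cell Ranger per the submitters' processing notes, which also name the build mm9, while the filter on cells is not given in the sources used here. Pools were taken from the number that ends each cell name, and samples were grouped by the titles in the labels. All cells were kept. Scrublet in scanpy 1.11.5 called 25 cells doublets (0.08%), too few to have worked, so none were removed. After scaling of each cell to 10000 UMIs, 1000 variable genes, 30 principal components and 30 shared neighbours gave 33 Leiden clusters (leidenalg 0.10.2, resolution 2), with 206 listed genes left out. Clusters were named when at least 3 markers of a class were among their 100 most specific genes and their 10 leading genes did not hold more markers of another class.

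Counts were summed per pool and class and tested with edgeR 4.0.16 (quasi-likelihood, TMM, filterByExpr) in R 4.3.3, with Benjamini-Hochberg adjustment over all genes tested, and with the pool as a block between classes. DESeq2 1.42.0 was an alternative, beside other scalings, no filter on low counts, resolution 1, a filter on cells, a term for the sets of pools and each pool left out. Since pools are of separate mice, p-values for housing and for the sets of pools measure the spread between pools. With the pool as a block, p-values between classes measure the spread over pools of the difference between classes. The fits were tested on simulated counts with 2-fold changes in 200 genes. For housing, 85.5% of these genes were recovered in KL, 87.5% in LTHSC-like and 90.5% in GMP-like cells. Between LTHSC-like and MPP-like cells 95.5% were. Smaller changes were not simulated, so the recovery of smaller housing differences is not known.

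The 42 genes and all lists were chosen with earlier results of these data known. Every one of the 42 is named, with values in every pool for the 2 highest of each role and for the gene with the smallest p in each direction in each housing comparison. Other genes are named when they were the 3 highest or 3 lowest log2 differences among those called. The test of housing between classes and the values within single groups of clusters were added after the values were seen. Promoter stretches are from RefSeq (GRCm38.p6), matched by symbol.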

Additional observations from a re-analysis of the deposited data

Results flagged for a closer look

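In 2 of 48 groups of 4 pools that were examined, 1 pool stood apart by Dixon's criterion, which chance does in about 1 group in 20. Both times it was SPF pool 7. The summed level of the 42 genes in MEP-like cells was 9262.8 CPM there and 10710.0 to 10886 CPM in the other SPF pools, and Nhp2 in all KL cells was 297.5 CPM there and 339 to 345 CPM in the others.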

How the results depend on the processing

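Of 380 values computed at alternative settings, 361 stayed within the limits set for them and 19 moved. The count of the 42 genes called for housing was 0 at all 107 alternative settings. Among all genes it was not always 0, with 50 of 15865 called in MPP-like cells when every gene of at least 1 UMI was kept. In MPP-like minus LTHSC-like, MEP-like minus CMP-like and the lower calls of late granulocyte-like minus GMP-like cells, no count moved by over 1.5 times. In GMP-like minus MPP-like cells, 19 genes were higher and 7 lower with library size alone, and 23 and 3 with clusters at resolution 1. In LMPP-like minus MPP-like cells, 1 was higher and 7 lower with library size alone, 0 and 0 with DESeq2, and 0 and 18 at resolution 1, and leaving out pools gave 2 to 3 higher and 2 to 5 lower (5 without CVT pool 4). In CMP-like minus MPP-like cells, 3 were higher with every gene of at least 1 UMI and 3 with DESeq2. In late granulocyte-like minus GMP-like cells, 0 were higher with library size alone, 0 with every gene kept and 0 with DESeq2, and 0 to 1 with a pool left out (0 without SPF pool 2 or CVT pool 3), so the call of Utp3 rested on the setting. The cause of these moves was not tested. The median log2 difference for housing in MEP-like cells was -0.0335 in the largest cluster alone. With a pool left out, that median ran from 0.00 to 0.10 in KL, -0.14 to -0.04 in LTHSC-like, -0.14 to -0.09 in MPP-like, -0.10 to 0.00 in LMPP-like, -0.06 to 0.01 in CMP-like, 0.04 to 0.12 in MEP-like and -0.11 to -0.06 in GMP-like cells.

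The removal of doublets called by Scrublet was not run, and at resolution 1 no CMP-like class was found, so its fits were not run there. No pairing of single pools was possible because the housing groups share no replicate number. The sets of pools could be fitted, but only an alternative fit had a term for them. In it 14 of 42 genes in MPP-like cells were lower in CVT pools with an unadjusted p under 0.05 (edgeR, 357 of 10152 genes tested). In GMP-like cells 14 of 42 were (459 of 10356). None of the 42 was higher at that threshold in either class, against 422 and 488 of all genes. LTHSC-like sums rest on 56 to 322 cells a pool, and genes at about 10 CPM there on few UMIs.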
